A study of Mus musculus with 6 samples.

Results

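The genes of the proteasome were followed through maps of HCFC1 binding in Hepa1-6 cells, a mouse hepatoma line that the labels list as wild type and as hepatocytes. Members were the peaks whose assigned gene name begins with Psma to Psmg followed by a digit, 183 of the 70638 peaks in the 3 HCFC1 lists. HCFC1-knockdown cells gave 44 of 12610 peaks, ERRα-knockdown cells 61 of 21881 and control cells 78 of 36147. The mouse RefSeq gene table holds 51 protein-coding genes with such names. Of these, 48 were sorted by hand into 19 core, 22 regulatory and 7 assembly genes, and 46 of the 48 had a peak in at least 1 list. Psmc3ip also matches the pattern but codes for a meiotic recombination factor, and its peaks, with scores of 46, 132 and 56 in the HCFC1-knockdown, ERRα-knockdown and control lists, were left out of the class counts. Of the other matching names in the table, 6 pseudogenes, Psme2b and Psme3ip1 had no peak under that name. Psme2b, named after the activator gene Psme2, was not sorted into a class, so the regulatory and family shares leave it out.

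Cells had received siRNA against HCFC1, siRNA against ERRα or a control pool of scrambled siRNA, each as a pair of 100 nM transfections 48 h apart (200 nM over 96 h in the labels). Chromatin was precipitated with an HCFC1 antibody, and each of the 3 lists stands for 1 library in which 2 independent immunoprecipitations were pooled, so no difference between conditions has a replicate check and no p-value was computed. The 3 IgG libraries were not analysed here. Read depth behind the lists is unknown, RNA and protein were not measured in them, and neither the extent of the knockdowns nor the cell identity could be checked from the lists. The peak score is the authors' own, on a scale that no source used here states; scores are given side by side but compared only within a list.

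The proteasome degrades proteins tagged with ubiquitin. Its barrel-shaped core is built from alpha subunits, which form the gated outer rings, and beta subunits, some of which carry the proteolytic sites. A regulatory particle of ATPases, scaffold and lid subunits binds ubiquitin chains, removes them and unfolds the substrate, and dedicated chaperones assemble both parts. HCFC1 is a chromatin coregulator without a DNA-binding domain of its own, brought to promoters by factors such as THAP11, ZFP143 and GABPA.

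Most proteasome genes carried an HCFC1 peak at their start. A proximal peak, one that the authors assigned to the gene and that was centred within 1000 bp of its annotated start, was present at 34 of 48 genes after HCFC1 knockdown (70.8%, exact 95% binomial interval 55.9 to 83.0%). It was present at 36 of 48 after ERRα knockdown (75.0%, 60.4 to 86.4%) and at 38 of 48 in control cells (79.2%, 65.0 to 89.5%). Among all 21900 protein-coding genes, expressed or not, the shares were 29.3%, 45.1% and 44.2% in the same order. By this distance rule the family's share was above that background in each list. Intervals cover counting error only.

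The promoter label of the lists gave much lower shares, for the family and for all genes. By that label 18 genes had a promoter peak after HCFC1 knockdown (37.5%), 12 after ERRα knockdown (25.0%) and 13 in control cells (27.1%), beside 15.3%, 22.3% and 23.5% of all protein-coding genes. In control cells the label of the members split at a peak centre 100 bp downstream. This was not particular to the family: all 4125 protein-coding genes centred upstream or up to 100 bp downstream were labelled promoter (100%). All 13 control members centred upstream of the start or up to 100 bp downstream of it were labelled promoter, and none of the 25 centred farther downstream was. Those 25 were labelled as intron (18), 5′ untranslated region (4) or exon (3). Peaks centred more than 100 bp downstream were labelled promoter at 2 of 18 members after HCFC1 knockdown, at 1 of 25 after ERRα knockdown and at 11.3% of all such genes in control cells.

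**Figure D1:**
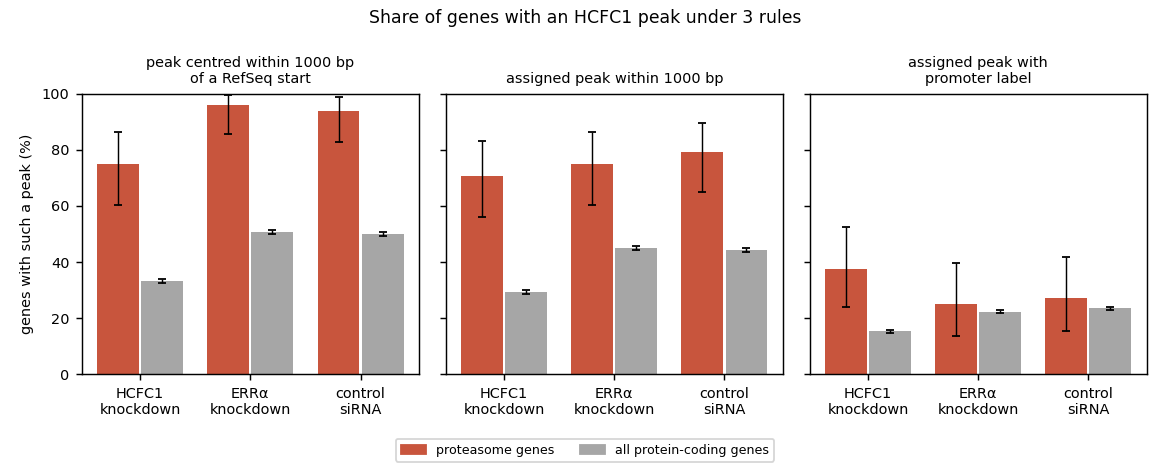
Percentage of the 48 proteasome genes (red) and of all protein-coding genes (grey) with an HCFC1 peak, for the HCFC1-knockdown, ERRα-knockdown and control lists under 3 rules; bars show the share and whiskers the exact 95% binomial interval. In control cells the proteasome share is 93.8% by position, 79.2% by assigned gene and 27.1% by the promoter label.

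Several of the remaining genes shared a peak that the lists give to a neighbour. When a peak was counted for every gene with a RefSeq start within 1000 bp of its centre, whatever gene it was assigned to, 36 of 48 genes were occupied after HCFC1 knockdown (75.0%), 46 after ERRα knockdown (95.8%) and 45 in control cells (93.8%, 82.8 to 98.7%). The same count gave 33.4%, 50.6% and 50.0% of the 17500 protein-coding genes with a start in the tables used. This positional count was added after the data were seen. The strongest such peak was assigned to another gene for 2 members after HCFC1 knockdown, 10 after ERRα knockdown and 8 in control cells. Psmc1 was a further case: its control peak was assigned to it at -1950 bp, outside the limit, but lay 179 bp downstream of the RefSeq start.

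**Figure D2:**
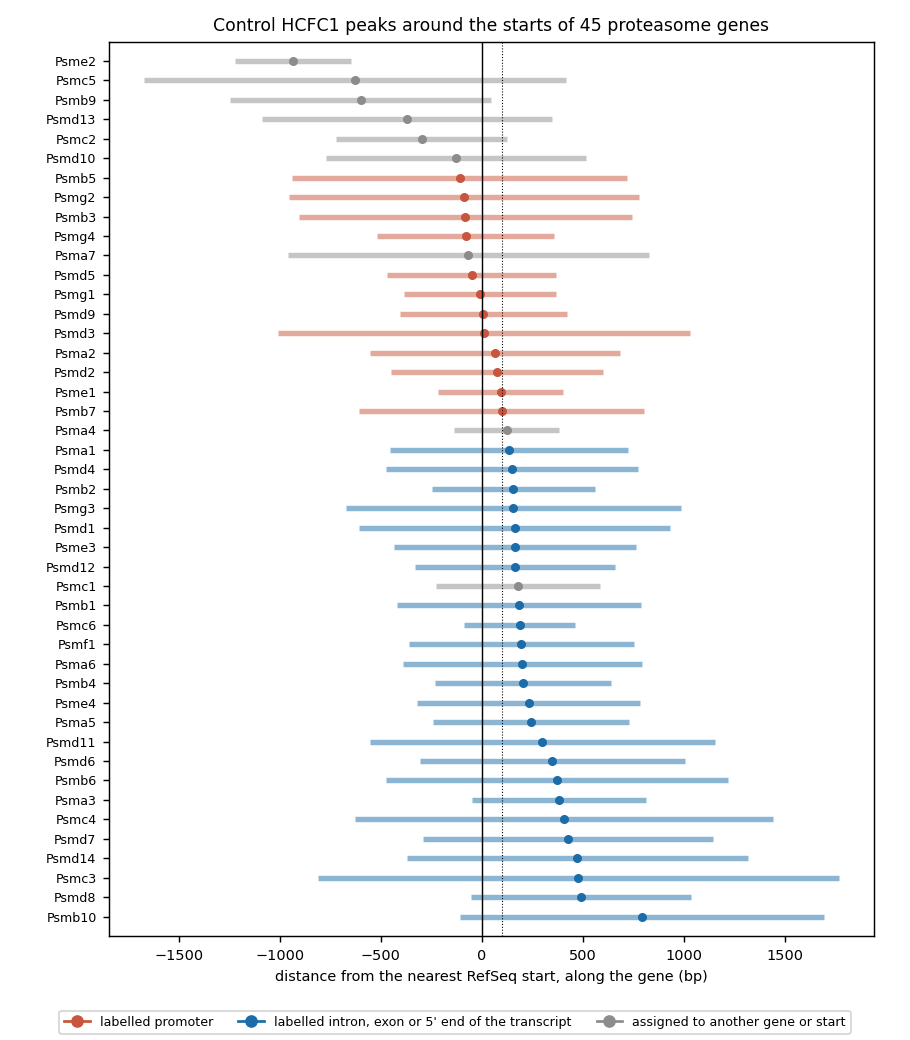
Position of the strongest control HCFC1 peak at each of 45 proteasome genes along the gene, with 0 at the nearest RefSeq start; the horizontal axis is in bp, lines span the peaks, points mark centres, the dotted line is at 100 bp, and colours mark the promoter label (red), other labels (blue) and peaks assigned to another gene or start (grey). Of the 45 peaks, 44 cover the start, all but that at Psme2, and 26 are centred more than 100 bp downstream of it.

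Control peaks of the family were centred slightly inside the genes, as were those of other genes. The median centre lay 155 bp downstream of the start for the 45 members (range -933 to 792 bp) and 112 bp downstream for the 8752 genes with such a control peak, and 71.1% and 67.9% were downstream. The peak covered the start at 44 of 45 members (97.8%) and at 83.5% of all those genes. Median widths were 1207 and 1025 bp. After HCFC1 knockdown members had a median width of 716 bp beside 667 bp for all genes, and after ERRα knockdown 1326 beside 1266 bp. Peaks of the HCFC1-knockdown list were thus narrower, by more than the family differed from all genes in any list. The control and ERRα-knockdown lists were closer to each other in width.

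By position, Psma8, Psmb8 and Psmb11 were the members without a control peak at the start, and all 3 are core genes expressed mainly in immune or other specialised tissues. Other interferon-induced members did have a control peak by position: Psmb9 (89), Psmb10 (117), Psme1 (36) and Psme2 (46). A link to expression was not tested. In control cells 13 of 19 core genes (68.4%, 43.4 to 87.4%), 19 of 22 regulatory genes (86.4%, 65.1 to 97.1%) and 6 of 7 assembly genes (85.7%, 42.1 to 99.6%) had an assigned proximal peak. By position the counts were 16 of 19, 22 of 22 and 7 of 7, and all 14 constitutive core subunits were among them. After HCFC1 knockdown the positional counts were 12 of 19 core, 18 of 22 regulatory and 6 of 7 assembly genes, and after ERRα knockdown 17 of 19, 22 of 22 and 7 of 7. The intervals of the 3 classes overlap widely in each list.

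**Figure D3:**
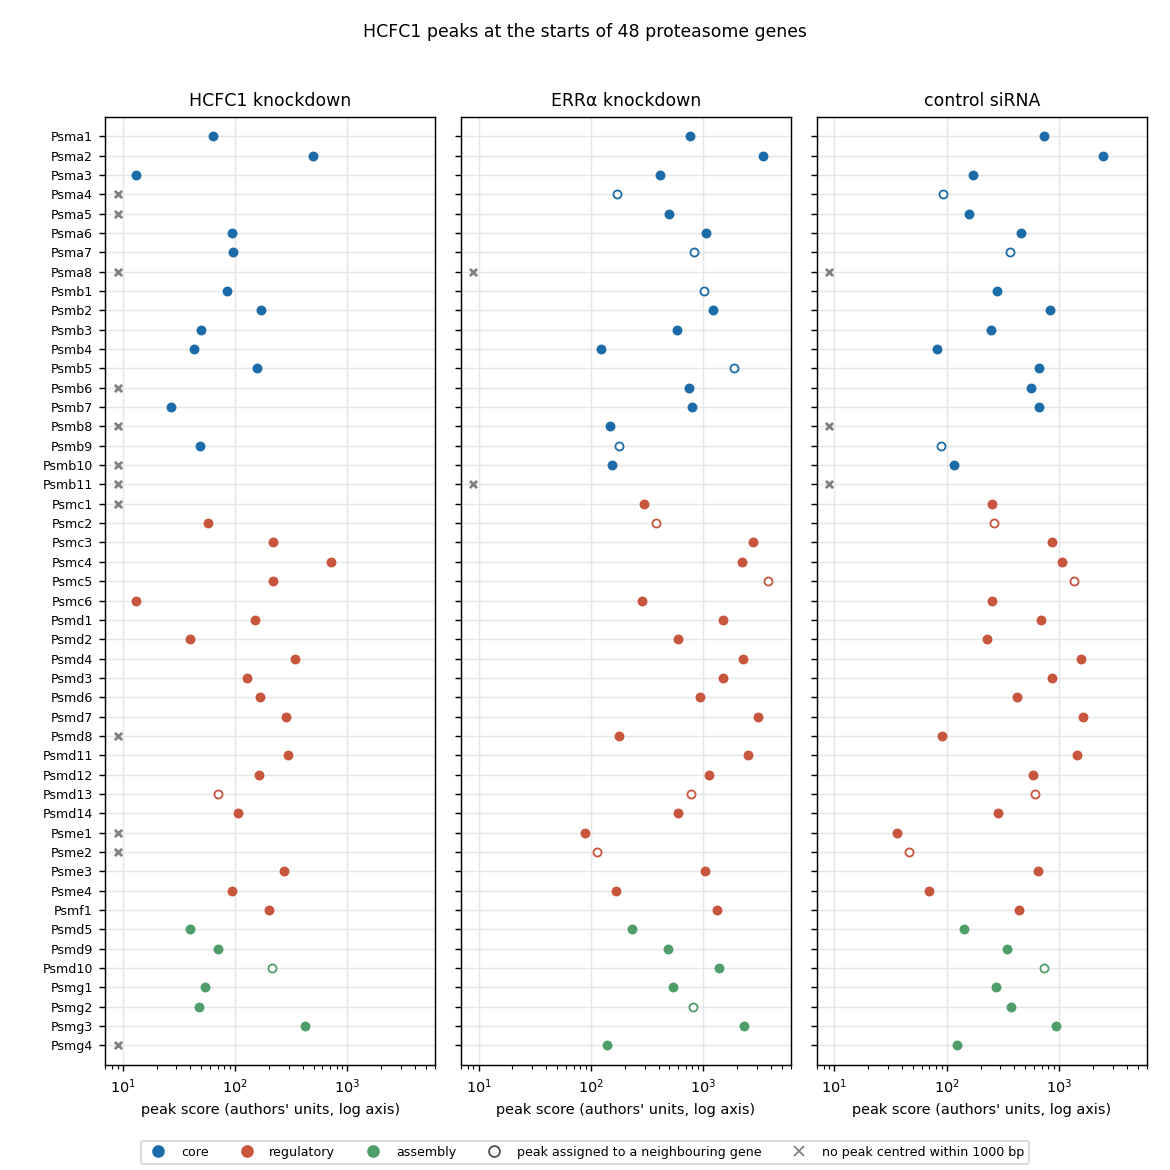
Score of the strongest HCFC1 peak centred within 1000 bp of the start of each of the 48 proteasome genes (log axis, the authors' units) in the HCFC1-knockdown, ERRα-knockdown and control lists; colours mark core, regulatory and assembly genes, open circles a peak assigned to a neighbouring gene, and crosses, placed at the left edge, genes without such a peak. Psma2 leads the control list at 2447, and Psma8 and Psmb11 have a cross in all 3 lists.

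The alpha ring genes, whose subunits gate the core, included the strongest peak of the family in control cells. Psma2 scored 495 after HCFC1 knockdown, 3366 after ERRα knockdown and 2447 in control cells (chromosome 13, 14612690 to 14613926, mm10), where it ranked 248 among the 8752 genes with a peak by position. It was thus high within each list. Psma1 scored 63, 769 and 734 in the same order of lists, Psma6 93, 1056 and 462, and Psma3 13, 415 and 171. The score of 13 for Psma3 is the lowest that the HCFC1-knockdown list holds, so its presence there is marginal. Psma5 had no proximal peak after HCFC1 knockdown and scored 499 after ERRα knockdown and 158 in control cells.

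Psma7 and Psma4 show how the assignment matters. At Psma7 the peak scored 96 after HCFC1 knockdown, 825 after ERRα knockdown and 362 in control cells, and the last 2 peaks were assigned to Ss18l1, whose start lies 19 bp away on the other strand. At Psma4 no peak was near the start after HCFC1 knockdown, and peaks of 170 after ERRα knockdown and 92 in control cells were assigned to AY074887. Neither gene would count as occupied in control cells by its own name. Psma8, the testis-restricted alpha subunit, had no peak near either end of the gene in any list.

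All 7 constitutive beta ring genes had an assigned proximal peak in control cells. Psmb2 scored 170 after HCFC1 knockdown, 1225 after ERRα knockdown and 822 in control cells. Psmb5, which carries the chymotrypsin-like site targeted by proteasome inhibitor drugs, scored 157, 1892 and 665; the ERRα-knockdown peak was 4233 bp wide and was assigned to Mir686. Psmb7, with the trypsin-like site, scored 27, 794 and 664. Within the HCFC1-knockdown list a score of 27 is low, at rank 4882 of 5841 genes. Psmb1 scored 85, 1007 (assigned to Tbp) and 278, Psmb3 50, 582 and 246, and Psmb4 43, 123 and 81, the lowest control score of the beta ring.

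Psmb6, with the caspase-like site, stood apart. It had no peak near its start after HCFC1 knockdown, against a peak of 746 after ERRα knockdown and 559 in control cells (chromosome 11, 70524882 to 70526576). Its control peak was not overlapped by any peak of the HCFC1-knockdown list. Of the 1382 genes with a control score of 559 or more by position, 8 had such a gap and 1374 (99.4%) were overlapped.

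The immunoproteasome genes, induced by interferon in place of constitutive beta subunits, had lower control scores than most of the family, though near the middle of all occupied genes (Psmb10 ranked 4365 of 8752), and Psmb8 had none in control cells. Psmb8 had a proximal peak after ERRα knockdown with a score of 149, and none after HCFC1 knockdown or in control cells. It was the single gene of the 3 members unoccupied in control cells to have one after ERRα knockdown; over all genes unoccupied in control cells, 9.76% had a peak after ERRα knockdown and 4.07% after HCFC1 knockdown. At Psmb9, which lies head to head with the peptide transporter gene Tap1, the strongest peak within 1000 bp of the start scored 49 after HCFC1 knockdown, 178 after ERRα knockdown and 89 in control cells. These strongest peaks were at different places. That of the HCFC1-knockdown list was centred 534 bp inside Psmb9 and did not overlap the others, which lay upstream and were assigned to Tap1. Another peak of the HCFC1-knockdown list did overlap the Psmb9 control peak, so the control site was not without a counterpart there. Psmb10 scored 155 after ERRα knockdown and 117 in control cells. The Psmb10 peaks were inside the distance limit, at 801 bp after ERRα knockdown and 793 bp in control cells, and the HCFC1-knockdown peak of Psmb10, with a score of 31 at 1069 bp, fell just outside. The Psmd8 peak after ERRα knockdown was inside at 902 bp. Psmb11, the thymus-restricted beta subunit, had no peak near its start in any list.

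All 6 ATPases of the regulatory particle were occupied by position in control cells. Psmc4 scored 714 after HCFC1 knockdown, the highest of the family in that list, 2219 after ERRα knockdown and 1049 in control cells. Psmc3 scored 219, 2757 and 871. At Psmc5 the peak scored 216 after HCFC1 knockdown, 3730 after ERRα knockdown and 1342 in control cells, and the last 2 were assigned to the ribosomal RNA methyltransferase gene Ftsj3, which starts 101 bp away on the other strand. The value of 3730 is the highest of the family in the ERRα-knockdown list, yet it does not appear under the name Psmc5. Psmc6 scored 13, 286 and 254. Psmc2 had its own proximal peaks (58, 355 and 90). In the ERRα-knockdown and control lists a stronger peak assigned to Dnajc2 (379 and 262) was centred within 1000 bp of another RefSeq start of Psmc2. That start is not the one from which the distances of its own peaks were measured. Psmc1 had peaks of 297 after ERRα knockdown and 252 in control cells and none near its start after HCFC1 knockdown.

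The scaffold and ubiquitin receptor genes of the base were occupied in all lists. The ubiquitin receptor gene Psmd4 scored 341 after HCFC1 knockdown, 2238 after ERRα knockdown and 1568 in control cells. Psmd1, for a large scaffold subunit, scored 149, 1504 and 686, and Psmd2 scored 40, 591 and 230. All 3 kept the same order within each list.

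The lid genes build the part of the regulatory particle that removes ubiquitin chains. Their median score was 164 after HCFC1 knockdown, 1034 after ERRα knockdown and 596 in control cells; the ATPases had medians of 216, 1299 and 566 and the other base subunits 149, 1504 and 686, in ranges that overlap. Psmd7 scored 284 after HCFC1 knockdown, 3066 after ERRα knockdown and 1618 in control cells, and Psmd11 scored 293, 2476 and 1432. Psmd3 scored 127, 1498 and 857, Psmd12 164, 1132 and 579, and Psmd6 167, 936 and 421. Psmd14, the deubiquitinase of the lid, scored 107, 591 and 283. At Psmd13 peaks of 71, 780 and 614 were assigned to Sirt3, a mitochondrial deacetylase gene that starts 85 bp away on the other strand. Psmd8 was the weakest lid gene, with 176 after ERRα knockdown and 91 in control cells and no peak near its start after HCFC1 knockdown.

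Activators and the inhibitor covered a wide range. Psme3, the nuclear activator subunit, scored 271 after HCFC1 knockdown, 1040 after ERRα knockdown and 654 in control cells. Psmf1, the PI31 inhibitor gene, scored 202, 1323 and 443, and Psme4, for the PA200 activator, 93, 166 and 69. The interferon-induced pair Psme1 and Psme2 lay at the bottom of the family. Psme1 had no peak near its start after HCFC1 knockdown and scored 88 after ERRα knockdown and 36 in control cells. Psme2 had none after HCFC1 knockdown; in control cells its own peak of 34 was not overlapped after ERRα knockdown, while a peak assigned to Rnf31 within 1000 bp of its start scored 114 after ERRα knockdown and 46 in control cells.

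All 7 assembly chaperone genes were occupied by position in control cells. Of the chaperones of the core, Psmg3 scored 418 after HCFC1 knockdown, 2311 after ERRα knockdown and 932 in control cells. Psmg2 scored 48, 808 (assigned to Cep76) and 374, and Psmg1 54, 533 and 273. Psmg4 scored 138 after ERRα knockdown and 122 in control cells and had no peak after HCFC1 knockdown. Of the chaperones of the base, Psmd10, known as gankyrin, lies head to head with the autophagy gene Atg4a: its peak scored 212 after HCFC1 knockdown, 1372 after ERRα knockdown and 739 in control cells, and was assigned to Atg4a in the first and last of these. By name Psmd10 would therefore appear as a site seen only after ERRα knockdown, although a peak was present in all 3 lists. Psmd9 scored 71, 487 and 346, and Psmd5 40, 232 and 142.

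Within the control list, proteasome genes ranked above most other occupied genes. Their median score by position lay at percentile 78.5 among the 8752 genes with a control peak, and 25 of the 45 were in the top 25%. The median was at percentile 74.9 of 5841 genes after HCFC1 knockdown (36 members) and 80.6 of 8862 after ERRα knockdown (46 members). The family also spans nearly the whole range of ranks, from percentile 12.6 (Psme1) to 97.2 (Psma2) in control cells.

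After HCFC1 knockdown, 32 of the 38 assigned proximal control peaks were overlapped by at least 1 bp (84.2%, 68.7 to 94.0%), against 59.7% of all genes with such a peak. By position the count was 37 of 45 (82.2%, 67.9 to 92.0%), against 61.7%. The overlapped peaks were at 13 of 16 core, 18 of 22 regulatory and 6 of 7 assembly genes. Beside Psmb6, the control peaks without a counterpart by position were those of Psmc1 (252), Psma5 (158), Psmg4 (122), Psma4 (92), Psmd8 (91), Psme2 (46) and Psme1 (36). Each of the 8 had a counterpart after ERRα knockdown.

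The share overlapped was higher at higher control scores, in the family as in all genes. When the 8752 genes were split by control score into 4 bins of equal size, members were overlapped after HCFC1 knockdown in 0 of 2, 4 of 6, 9 of 12 and 24 of 25 cases from the lowest to the highest bin, while all genes were overlapped in 24.9%, 50.5%, 74.3% and 97.0%. In the upper 2 bins, which hold 37 of the 45 members, the members' shares (75.0% and 96.0%) were close to those of all genes.

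After ERRα knockdown, 37 of the 38 assigned proximal control peaks were overlapped (97.4%, 86.2 to 99.9%), against 91.8% of all genes, Psme2 being the exception. By position all 45 were overlapped (100%, 92.1 to 100%), against 92.5%, with Psme2 counted by the peak assigned to Rnf31. From the lowest to the highest score bin, 2 of 2, 6 of 6, 12 of 12 and 25 of 25 members were overlapped. All genes had 73.6%, 96.6%, 99.9% and 100%, so in the upper bins, where most members lie, the shares were close. Of the 45 members 37 were overlapped in both lists, 8 after ERRα knockdown alone and 0 after HCFC1 knockdown alone; of all 8752 genes 5336, 2760 and 61 fell in these classes, and 595 were overlapped in neither. The ERRα-knockdown peaks were also wider, with a median of 1326 bp over the members by position against 1207 bp in control cells; the part of width and depth in these counts was not tested.

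**Figure D4:**
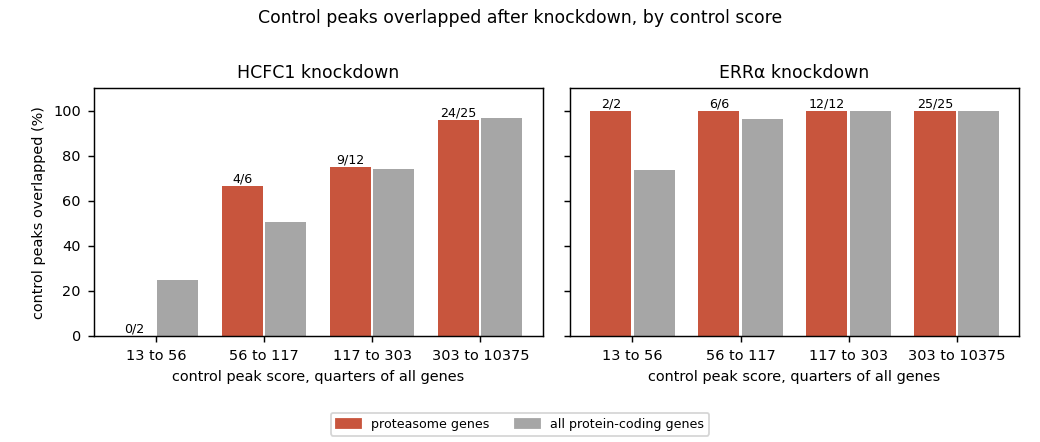
Percentage of control peaks at gene starts that share 1 bp or more with a peak found after HCFC1 knockdown (left) and ERRα knockdown (right), in 4 equal bins of the control score over all genes; red bars are proteasome genes with their counts above, grey bars all protein-coding genes with a control peak by position. After HCFC1 knockdown the share of all genes climbs from 24.9% in the lowest bin to 97.0% in the highest, and members reach 24 of 25 there.

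Peaks assigned to the family away from gene starts were weak. Of the 77 control peaks of the 48 genes, 39 at 21 genes were centred more than 1000 bp from the start, with a median score of 31, beside 30 for all such control peaks. The highest of them, 252, is the Psmc1 peak described above. Psmd4 had 8 assigned peaks in control cells and Psmb7 had 6, of which 1 each was proximal. After HCFC1 knockdown 1 of the 39 was overlapped (2.56%), beside 7.10% of all distal control peaks, and after ERRα knockdown 6 (15.4%), beside 18.6%. The knockdown lists held 9 distal family peaks after HCFC1 knockdown and 24 after ERRα knockdown.

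Some members share their start region with another gene, in a proportion near that of all genes. Among the 40 members with a RefSeq promoter entry, 7 (17.5%) had a start on the opposite strand within 1000 bp upstream, against 13.9% of 17492 protein-coding genes. These were Psma2 with the mitochondrial ribosomal gene Mrpl32 (205 bp between starts), Psma7, Psmb9, Psmc5, Psmd10, Psmd13 and Psme2 (641 bp to Rnf31). Psmc2 was not counted among these 7. Its control peak assigned to Dnajc2 was centred at -298 bp from a Psmc2 start and at 188 bp from the Dnajc2 start. By those distances this pair is head to head too, so the count of 7 can be too low. All 7 were occupied in control cells, as were 31 of the other 33, Psmc2 included. Among all genes the shares with and without a counted neighbour were 83.9% and 44.5%. The control peak covered both starts in 6 of 7 pairs, so it cannot be told from the peak which gene of a pair it belongs to.

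The DNA before the start is shown for 5 members: Psma2, with the highest control score, Psmd11 and Psmd10, the members that hold the core of the THAP11 and ZFP143 element, Psmb6, the strongest member without a counterpart after HCFC1 knockdown, and Psmb11, with no peak near its start in any list. Each stretch is the last 200 bases before the RefSeq start (GRCm38.p6, the build also called mm10), read 5′ to 3′ along the gene. Capitals mark matches, on either strand, to GCATGCGC in Psma2, ACTACAA in Psmd10, ACTACAA and CCGGAAG in Psmd11, TGACNNNGC in Psmb6 and CCAAT in Psmb11.
Psma2, chr13:14613042-14613241, plus strand: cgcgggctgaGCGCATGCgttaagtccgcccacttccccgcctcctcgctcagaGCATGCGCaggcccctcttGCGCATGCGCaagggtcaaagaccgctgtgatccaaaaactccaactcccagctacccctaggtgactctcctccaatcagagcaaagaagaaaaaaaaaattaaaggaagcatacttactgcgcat
Psmd11, chr11:80428415-80428614, plus strand: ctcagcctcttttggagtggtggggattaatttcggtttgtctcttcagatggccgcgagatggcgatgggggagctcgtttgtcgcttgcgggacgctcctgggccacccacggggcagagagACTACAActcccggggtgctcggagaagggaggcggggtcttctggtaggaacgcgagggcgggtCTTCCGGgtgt
Psmd10, chrX:140956712-140956911, minus strand: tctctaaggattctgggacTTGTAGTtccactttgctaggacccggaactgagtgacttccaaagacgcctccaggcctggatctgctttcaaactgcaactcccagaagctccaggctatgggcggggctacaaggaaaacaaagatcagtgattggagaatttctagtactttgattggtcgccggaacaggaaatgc
Psmb6, chr11:70525157-70525356, plus strand: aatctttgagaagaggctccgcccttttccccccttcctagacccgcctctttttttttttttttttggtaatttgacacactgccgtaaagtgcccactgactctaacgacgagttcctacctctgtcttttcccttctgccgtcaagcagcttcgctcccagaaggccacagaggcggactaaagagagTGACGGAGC
Psmb11, chr14:54625110-54625309, plus strand: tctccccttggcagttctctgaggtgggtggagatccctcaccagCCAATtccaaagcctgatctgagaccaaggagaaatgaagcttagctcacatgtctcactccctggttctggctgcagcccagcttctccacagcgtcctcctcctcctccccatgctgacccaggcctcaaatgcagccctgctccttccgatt

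Of 8 short motifs searched on both strands in windows of 250 bases before to 50 after each start, the ETS core CCGGAAG, bound by GABPA and its relatives, had the highest ratio of its share in the family to its share in all genes. It was present at 14 of 40 members (35.0%), among them Psmd4, Psmd11 and Psmg3, against 12.9% of all 17492 genes with an entry. Genes with a control peak by position held it in 22.0% of cases and genes without one in 3.91%. The YY1 motif AAGATGG was present at 7 members (17.5%), 7.18% of all genes and 8.72% of those with a control peak, so that against occupied genes the ratio was higher for YY1 than for the ETS core. GCATGCGC, the core of the NRF1 site, was present at 3 members (7.50%) and 3.94% of all genes, and its 6.48% among genes with a control peak is near the members' share. At Psma2 the latter occurred 4 times, an overlapping pair included.

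ACTACAA, the core of the THAP11 and ZFP143 element, was present at 2 members, Psmd10 and Psmd11 (5.00%), and at 4.19% of all genes; it was found at 5.40% of genes with a control peak and 2.98% of those without. CCAAT, bound by NF-Y, was present at 14 members (35.0%) and 42.3% of all genes, and TGACNNNGC, the core of the antioxidant response element that NFE2L1 uses at proteasome genes, at 6 members (15.0%) and 14.8% of all genes. The ERR element TCAAGGTCA and the CREB site TGACGTCA were found at 0 of 40 members and at 0.377% and 2.54% of all genes. Windows of members had a median GC content of 59.0%, those of all genes with a control peak 63.0% and those of genes without one 50.0%. A match is a description of letters in this window and not a site.

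Most genes that work with the proteasome but carry other names were occupied too. Of a list of 24 such genes, 23 matched the gene table, and 18 had an assigned proximal peak after HCFC1 knockdown (78.3%), 22 after ERRα knockdown (95.7%) and 21 in control cells (91.3%), beside 29.3%, 45.1% and 44.2% of all protein-coding genes. The difference from the proteasome genes was not tested. By position 16, 18 and 19 of the 19 with a start in the promoter table were occupied. The positional shares of all protein-coding genes with a start were 33.4%, 50.6% and 50.0% in the same order. The highest control scores of peaks assigned to these genes belonged to Ube3c, a ubiquitin ligase of the proteasome (30 after HCFC1 knockdown, 2012 after ERRα knockdown, 1198 in control cells), Akirin2, needed for nuclear import of proteasomes (320, 2265 and 1168), and the ubiquitin receptor gene Adrm1 (91, 1674 and 1002). Nfe2l1, the transcription factor of the proteasome recovery response, scored 77, 925 and 334, and Pomp, the maturation factor of the core, 145, 966 and 581. By position, Ubqln4, a ubiquitin shuttle gene, had a control peak of 4208, above every proteasome gene. No peak was centred within 1000 bp of its start in either knockdown list. That is not a missing counterpart, because a peak centred farther away can overlap the control peak, and this was not looked up for Ubqln4. Of all 2188 genes in its control score bin (303 to 10375), 2123 were overlapped after HCFC1 knockdown and 2187 after ERRα knockdown. Ufd1, which codes for a cofactor of the VCP segregase, scored 207 after HCFC1 knockdown, 3082 after ERRα knockdown and 1696 in control cells by position. Of the 21 control peaks by assigned gene, 18 were overlapped after HCFC1 knockdown and 21 after ERRα knockdown. Among all genes with such a peak the shares were 59.7% and 91.8%. Most of the 21 had control scores in the highest of 4 equal bins by assigned gene (254 to 16485). In that bin all genes were overlapped in 95.9% and 100% of cases. The related genes were not split by score, so these counts do not set them apart from other genes of similar score.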

How the data were processed

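The files are the authors' deposited lists of annotated HCFC1 peaks for 3 conditions, 1 library each. A note deposited with them says that 2 independent immunoprecipitations were pooled per library. Per the submitters' processing notes, the build was mm10 and the tools were HOMER 4.11.1, MACS2 2.1.1.20160309, Picard 2.0.1 and BWA 0.7.12, with no roles given. The sources used here do not say whether the IgG libraries served as background for the peaks. The authors' deposited score per peak holds whole numbers of 13 or more, on an unstated scale. Read depth is unknown.

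Proteasome genes were sorted into core, regulatory and assembly classes by hand. Members and lists were chosen with earlier results of these data known. Every member is accounted for, and related genes are given as counts with the 3 highest control scores and Nfe2l1 and Pomp. By assigned gene, a gene was occupied when a peak assigned to it was centred within 1000 bp of its start. By position, it was occupied when any peak was centred that near a RefSeq start. Scores and ranks of single members are those of the highest peak by position, unless called the gene's own. Scores of related genes are those of the highest assigned peak, unless given by position. A positional count used peaks centred within 1000 bp of a RefSeq start: 40 members had starts in the RefSeq promoter table, 7 took an end of the gene with the strand implied by the authors' distances, and 1 was tried at both ends. A control peak was overlapped when it shared at least 1 bp with a knockdown peak. Intervals are exact binomial (Clopper-Pearson, 95%). The functions were checked on simulated peak lists. Python 3.11.15, pandas 2.3.3 and SciPy 1.17.1 were used. Alternatives were other distances, the promoter label, the higher-scoring 50% of each list, equal list lengths, other overlap rules, peaks counted by RefSeq start, and leaving out immune and tissue-restricted genes.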

Additional observations from a re-analysis of the deposited data

How the results depend on the processing

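Of 66 alternative values for 8 shares, 47 stayed within the interval of the share as reported and 19 left it. By the promoter label the share of occupied members was 37.5% after HCFC1 knockdown, 25.0% after ERRα knockdown and 27.1% in control cells. All protein-coding genes had 15.3%, 22.3% and 23.5% in the same order. In control cells the label gave 21.1% for core and 18.2% for regulatory genes, both below the share of all genes, and 71.4% for assembly genes. With peaks counted at RefSeq starts whatever gene they were assigned to, by centre or by overlap of the window, the share was 95.8% after ERRα knockdown and 93.8% in control cells, and 100% for regulatory and for assembly genes in control cells. By centre, all protein-coding genes with a start had 50.6% after ERRα knockdown and 50.0% in control cells. Overlap of control peaks after HCFC1 knockdown fell to 55.3% with a reciprocal overlap of at least 50% and to 60.5% with centres within 200 bp. After ERRα knockdown it was 60.5% with centres within 200 bp, and 100% with the higher-scoring 50% of each list, with lists of equal length or by RefSeq start. No share of all genes was obtained for overlap under the reciprocal and centre rules or with shortened lists. The shares of all genes given above used the 1 bp rule on full lists and are not a background for these values. The cause was not tested for these overlap values. No paired analysis was possible because each condition has 1 HCFC1 library. Depth is unknown, so a missing peak is not evidence of no binding.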
